A study of Mus musculus with 50 samples.

Results

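Colon RNA of mice that lacked FADD in intestinal epithelial cells and also lacked Zbp1 was compared with colon RNA of mice that lacked FADD in those cells and also lacked Mlkl. The arrays were taken by title: FADD IEC-KO Zbp1 -/- numbered 1 to 5 and FADD IEC-KO Mlkl -/- numbered 11 to 15, which is 10 of the 50 arrays of the series, with 1 mouse per array. IEC-KO stands for a knockout in intestinal epithelial cells, and both groups carried the FADD deletion. The labels give the Zbp1 and Mlkl alleles as -/- with no cell type, and the sources used here name no Cre driver for the epithelial deletion. Mice were 10 to 12 weeks old per the design text and 11 weeks per the sample descriptions, and pieces of colon, not sorted epithelium, were extracted. A further 2 groups of 5 serve as the nearest levels to compare with: the floxed controls without the epithelial deletion (Fadd fl/fl, numbered 26 to 30) and the mice with the FADD deletion alone (FADD IEC-KO, numbered 21 to 25). Where means over all 10 groups are given, the other 6 groups of 5 are CASP8 IEC-KO Mlkl -/- (numbered 6 to 10), CASP8 IEC-KO (16 to 20, and a second group numbered from 87 up), a second FADD IEC-KO group, Casp8 fl/fl, and FADD IEC-KO together with RIPK3 IEC-KO. The last 3 and the second CASP8 IEC-KO group have title numbers from 86 to 124. The 4 groups compared most lie in the first of the title-number series (1 to 30), and nothing in the labels says what that series stands for, or whether the mice of a group were littermates. The p-values therefore measure only spread between samples. That spread, and the SE of each difference, was estimated within all 10 groups of the 50 arrays, not from the 2 compared groups alone. For Lcn2, the SDs were 0.41 and 0.34 in the Zbp1 -/- and Mlkl -/- groups and 2.16 with the FADD deletion alone. The SE of the Lcn2 difference was 0.63.

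FADD links death receptors to caspase-8. Caspase-8 starts apoptosis and cleaves RIPK1 and RIPK3, which keeps necroptosis in check. When that brake is missing, RIPK3 can phosphorylate MLKL, and MLKL then breaks the plasma membrane. ZBP1 is a sensor of Z-form nucleic acids that binds RIPK3 through RHIM domains and so stands upstream of it, whereas MLKL is the last step. ZBP1 can also feed RIPK3 into caspase-8 and NF-kappaB signalling, and its own gene is induced by interferons. The comparison therefore asks whether removing the sensor or the executioner leaves the same colon transcriptome when epithelial FADD is gone.

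All values are log2 signals of Affymetrix arrays, so a difference of 1 is a doubling. Array medians of the 10 arrays lay between 6.44 and 6.47. Correlations across genes were 0.988 to 0.992 between Zbp1 -/- arrays, 0.991 to 0.994 between Mlkl -/- arrays and 0.986 to 0.993 between the groups. The tissue matched its label: the mean of 28 measured absorptive colonocyte genes was 10.00 to 10.20 in the Zbp1 -/- arrays and 10.06 to 10.25 in the Mlkl -/- arrays. The colonocyte gene Car1 averaged 12.66 and 12.83 in these groups, and the small intestinal gene Sis 4.92 and 4.81. Y-linked genes were high in 2 Zbp1 -/- arrays and 3 Mlkl -/- arrays. In bulk tissue, fewer cells of a type and less RNA per cell cannot be told apart.

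The deleted genes were read first. Mlkl signals were 8.54, 8.51, 8.87, 8.97 and 8.55 in Zbp1 -/- replicates 1 to 5 and 7.18, 7.21, 7.33, 7.16 and 7.00 in Mlkl -/- replicates 11 to 15. No array of one group reached the other, and the Mlkl difference was 1.52 ± 0.17 (SE, n = 5 against 5, limma adjusted p = 1.18e-07). Floxed controls were at 8.25 ± 0.20 (SD, n = 5), so Mlkl in Zbp1 -/- tissue was not below the floxed level. Zbp1 signals were 5.28, 5.77, 5.53, 6.10 and 4.77 in Zbp1 -/- mice and 6.64, 6.90, 7.13, 6.65 and 6.73 in Mlkl -/- mice. The highest Zbp1 -/- array stayed under the lowest Mlkl -/- array, and the Zbp1 difference was -1.32 ± 0.27 (SE, limma adjusted p = 0.00943). Without Zbp1 -/- replicate 5, the lowest array, it was -1.14 (limma adjusted p = 0.0564). Zbp1 in Zbp1 -/- mice lay near the floxed level of 5.68 ± 0.19 (SD, n = 5), and mice with the FADD deletion alone were at 7.29 ± 0.61. The sources used here do not place the probes on the deleted exons, so a signal above zero in a knockout is no measure of leftover transcript. Fadd itself was at 6.23 ± 0.19 with Zbp1 -/- and 6.36 ± 0.10 with Mlkl -/-, against 7.38 ± 0.18 in floxed mice (SD, n = 5 each).

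Casp8, the gene of the protease that FADD recruits, was lower in every Zbp1 -/- mouse than in any Mlkl -/- mouse. Casp8 signals were 10.33, 9.90, 10.36, 10.22 and 10.16 against 10.74, 10.64, 10.63, 10.50 and 10.79, a difference of -0.46 ± 0.11 (SE, limma adjusted p = 0.0405). The Casp8 mean of Mlkl -/- mice, 10.66, was close to that of mice with the FADD deletion alone (10.68), and the Zbp1 -/- mean of 10.20 lay nearer to the floxed 10.32. With only the 10 arrays fitted the adjusted p of Casp8 was 0.0667, and it was 0.203 without Zbp1 -/- replicate 2. Tnfsf10, which encodes the death ligand TRAIL, went the other way. Its signals were 7.05, 7.52, 7.73, 8.16 and 7.12 in Zbp1 -/- mice and 6.78, 6.84, 6.75, 6.48 and 6.44 in Mlkl -/- mice, again without overlap (0.86 ± 0.20, SE, limma adjusted p = 0.0389). The floxed mean of Tnfsf10 was 6.20 and that of the FADD deletion alone 7.74. Its adjusted p was 0.0687 with the 10 arrays alone and 0.197 without Zbp1 -/- replicate 4. Sharpin, a subunit of the linear ubiquitin ligase, was 0.30 ± 0.07 higher (SE, limma adjusted p = 0.0367), with signals of 8.56 to 8.81 against 8.33 to 8.46, and passed in 9 of 21 alternative analyses. Ripk3, the kinase between the sensor and the executioner, was at 7.41 ± 0.27 with Zbp1 -/- and 7.17 ± 0.14 with Mlkl -/-, and its ranges of 7.16 to 7.83 and 6.98 to 7.34 overlapped (0.24 ± 0.25, SE, limma adjusted p = 0.885).

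**Figure D1:**
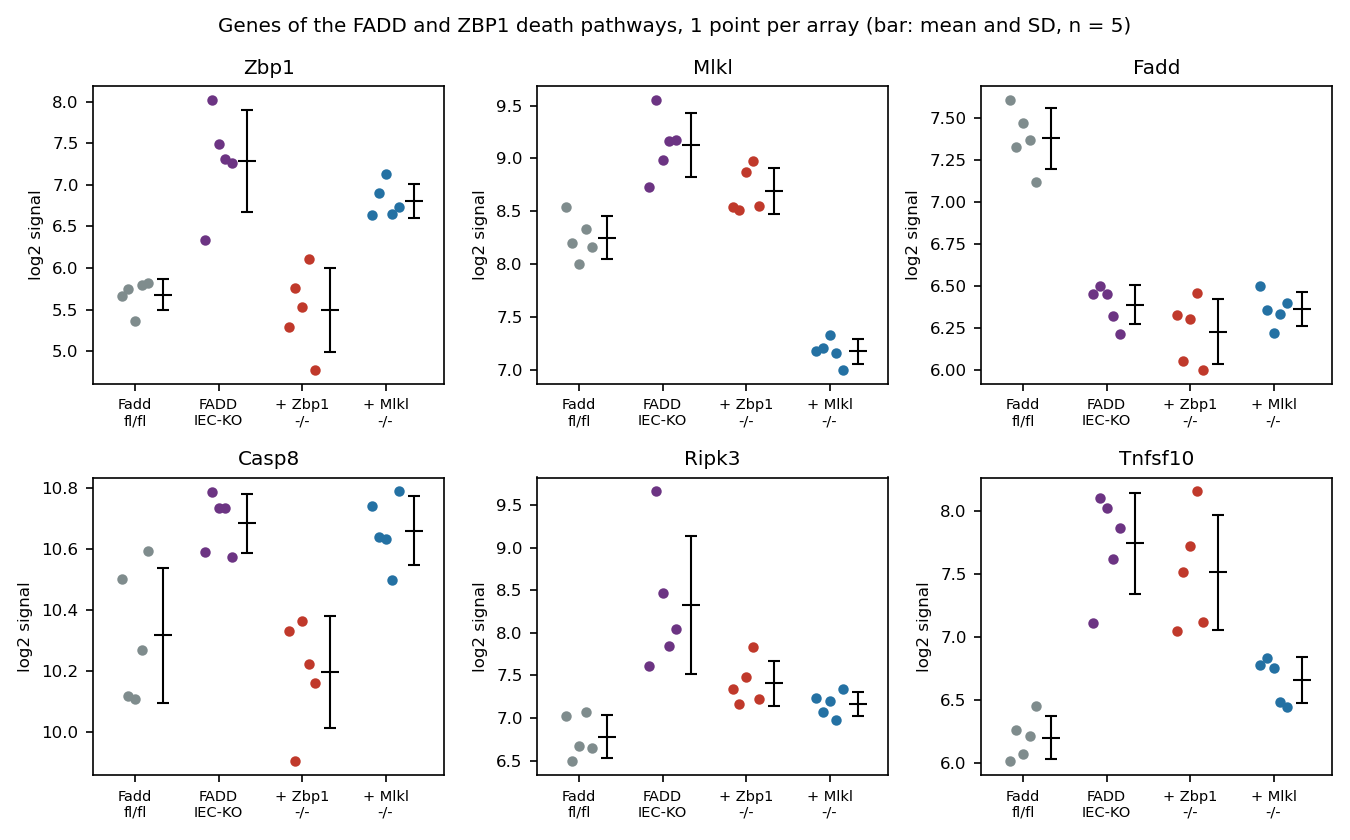
Log2 signals (vertical axes) of Zbp1, Mlkl, Fadd, Casp8, Ripk3 and Tnfsf10 in floxed mice, mice with the FADD deletion alone, and the Zbp1 -/- and Mlkl -/- groups on that deletion. Each point is 1 array and the black bar is the mean with its SD (n = 5). Zbp1, Mlkl, Casp8 and Tnfsf10 of the Zbp1 -/- and Mlkl -/- groups do not overlap, and Ripk3 does.

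In all, 83 of 19494 genes (0.426%) passed an adjusted p of 0.05, 44 higher (0.226%) and 39 lower (0.2%) in Zbp1 -/- than in Mlkl -/- colon. Before adjustment 1706 genes had p under 0.05. The changes were small: the absolute difference of the 83 ran from 0.30 to 1.52 with a median of 0.47, 46 were under 0.5 and 5 were over 1. Those 5 were Mlkl, Zbp1, Hspb7, Irf7 and Sh3bgrl, so 3 of the genes that passed, beyond the deleted ones, differed by more than a doubling. The 5 arrays of each group did not overlap for 79 of the 83, against 652 of all genes (3.34%; 1.85% higher and 1.49% lower). The exceptions, named after their values were seen, were Tmem106a, Snai2, Tsen34 and Fosb. The same arrays picked out the 83, which favours groups that do not overlap, so the 79 are given as a description. The count of genes that passed depended on the arrays: it was 34 without Zbp1 -/- replicate 2, 39 without replicate 4 and 98 without replicate 1. It was 55, 38 and 46 without Mlkl -/- replicates 11, 13 and 15. Of the 83, 18 passed in each of 21 alternative analyses. The 21 leave out the alternative that required a log2 difference of at least 1, which only the 5 genes named above met.

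**Figure D2:**
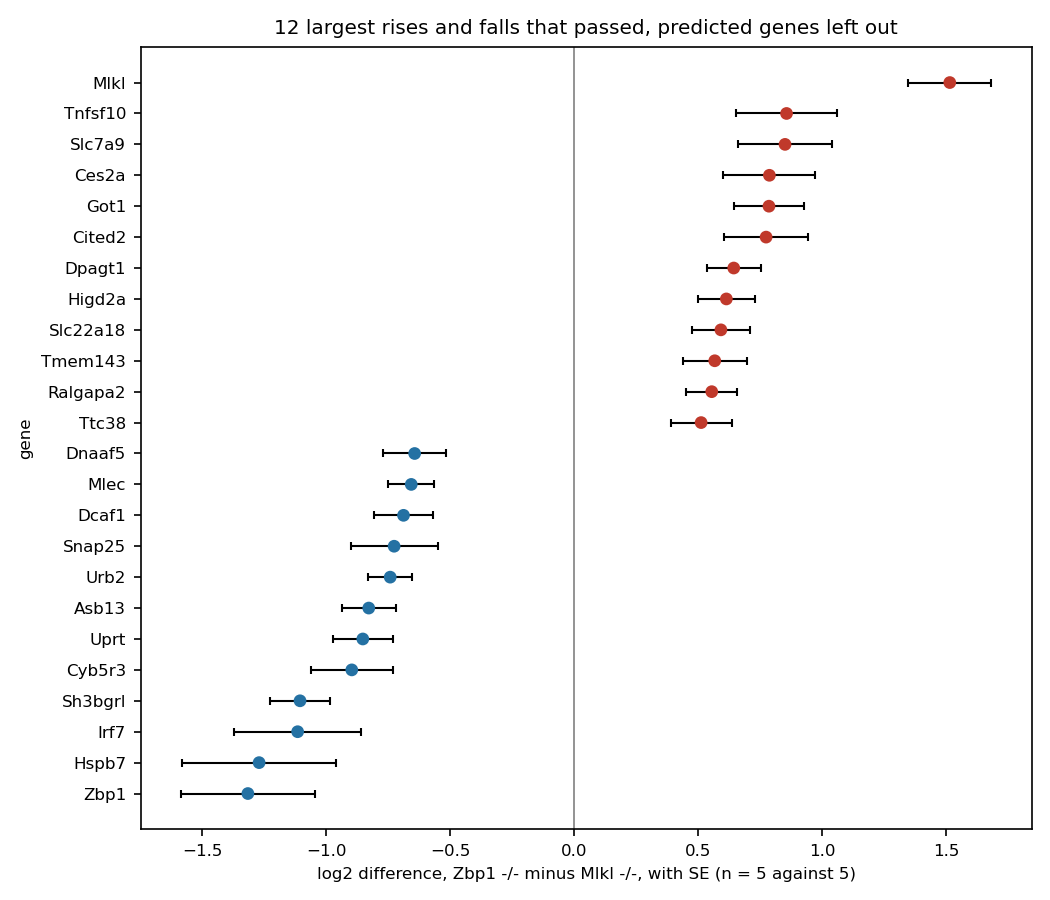
Log2 difference of Zbp1 -/- minus Mlkl -/- (horizontal axis) with its SE for the 12 largest rises and 12 largest falls among genes that passed and whose groups did not overlap, with predicted genes such as Gm11437 (0.87) left out. Mlkl at 1.52 and Zbp1 at -1.32 are the ends of the plot, and the falls reach further from 0 than the rises once these are set aside.

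Among the falls were genes whose mean in Zbp1 -/- colon lay below those of the other 9 groups of the series. Sh3bgrl, which encodes a small thioredoxin-like protein and lies on chromosome X, had signals of 7.78, 7.59, 8.39, 7.97 and 8.07 in Zbp1 -/- mice and 8.99, 9.13, 9.10, 9.12 and 8.99 in Mlkl -/- mice. The Sh3bgrl difference was -1.11 ± 0.12 (SE, limma adjusted p = 1.18e-07), and the other 8 groups of the series had means of 8.69 to 9.18. Uprt, a homologue of uracil phosphoribosyltransferase 31 tested genes away from Sh3bgrl on the same chromosome, had signals of 8.46, 8.21, 8.98, 8.26 and 8.44 against 9.40, 9.42, 9.38, 9.18 and 9.22. The Uprt difference was -0.85 ± 0.12 (SE, limma adjusted p = 2.89e-05), with means of 9.17 to 9.51 in the other 8 groups. Zbp1 -/- replicate 3 was the highest of its group for both genes.

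Other falls of this kind were Urb2, Asb13, Cyb5r3 and Dcaf1. Urb2, a ribosome biogenesis factor on chromosome 8, was at 8.01, 7.82, 8.05, 8.03 and 7.80 in Zbp1 -/- mice and 8.76, 8.68, 8.65, 8.56 and 8.77 in Mlkl -/- mice (-0.74 ± 0.09, SE, limma adjusted p = 6.39e-07). Its means in the other 8 groups were 8.34 to 8.68. Asb13, a SOCS-box protein that serves ubiquitin ligases, ran from 6.97 to 7.66 against 8.09 to 8.38 (-0.83 ± 0.11, limma adjusted p = 5.12e-06). Cyb5r3, the NADH-cytochrome b5 reductase, ran from 9.59 to 10.10 against 10.58 to 10.77 (-0.90 ± 0.17, limma adjusted p = 0.00326). Dcaf1, a substrate receptor of cullin ubiquitin ligases, ran from 8.21 to 8.90 against 9.19 to 9.35 (-0.69 ± 0.12, limma adjusted p = 0.00165). Sh3bgrl, Uprt, Urb2, Asb13, Cyb5r3 and Dcaf1 passed in all 21 alternative analyses, and for each of them Mlkl -/- and floxed means differed by 0.16 or less.

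**Figure D3:**
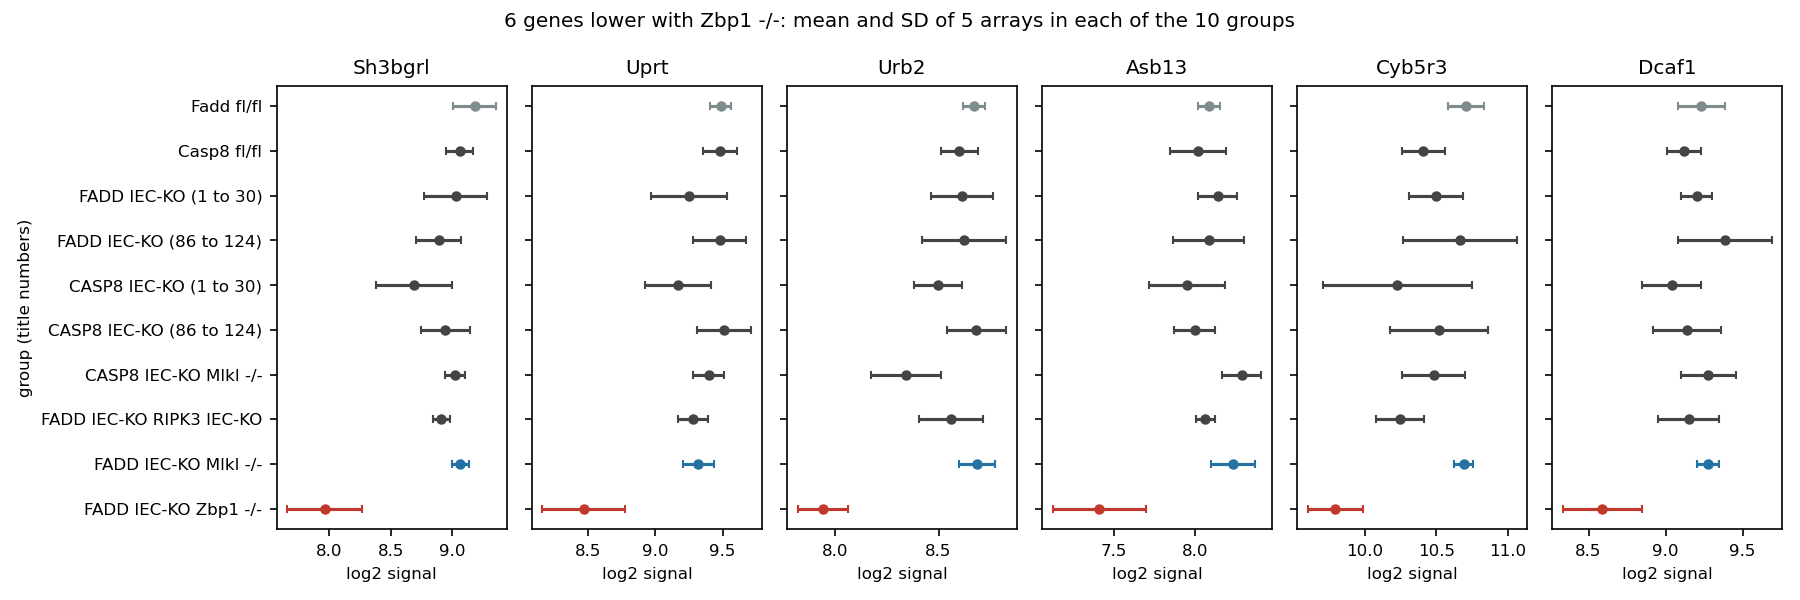
Mean log2 signal with its SD (n = 5 arrays) of Sh3bgrl, Uprt, Urb2, Asb13, Cyb5r3 and Dcaf1 in the 10 groups of the series, with title numbers beside the genotypes that occur in both number series. The Zbp1 -/- group (bottom) lies below the other 9 groups for all 6 genes.

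Of the 83 genes, 61 had a Zbp1 -/- mean outside the range of the other 9 groups, 31 had a Mlkl -/- mean outside it, 22 had both and 13 neither. Over all tested genes the Zbp1 -/- mean was outermost for 16.5% and the Mlkl -/- mean for 12.4%. A gene that passed had to have its group means apart, which favours outer means, so the shares are given as a description. Mlec, encoding the endoplasmic reticulum lectin malectin, had both: 9.53 to 10.13 with Zbp1 -/-, 10.23 to 10.65 with Mlkl -/-, and means of 10.11 to 10.43 in the other 8 groups (-0.66 ± 0.09, SE, limma adjusted p = 2.89e-05). Dnaaf5, an assembly factor of ciliary dynein, was at 6.12 ± 0.15 against 6.76 ± 0.19 (SD, n = 5 each; limma adjusted p = 0.00695). Snap25, a SNARE protein of neurons and endocrine cells on chromosome 2, had signals of 7.29, 6.47, 7.33, 6.81 and 6.93 against 7.85, 7.69, 7.72, 7.80 and 7.40 (-0.73 ± 0.18, SE, limma adjusted p = 0.0405). It was the only gene of 19 measured enteric neuron and glia genes that passed, the list median was -0.02, and without Zbp1 -/- replicate 2 its adjusted p was 0.208.

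Hspb7, a small heat shock protein of muscle, was the largest fall after Zbp1. Its signals were 8.58, 7.99, 8.41, 7.84 and 8.38 in Zbp1 -/- mice and 9.44, 9.23, 9.57, 9.81 and 9.50 in Mlkl -/- mice (-1.27 ± 0.31, SE, limma adjusted p = 0.0415). The Hspb7 mean of the floxed mice was 9.41 and that of mice with the FADD deletion alone 8.18 ± 0.93, whose arrays ran from 7.25 to 9.43. The list of 22 smooth muscle genes did not show this gap. None of them passed, their median was 0.01, and list means were 9.63 to 9.77 in Zbp1 -/- and 9.63 to 9.89 in Mlkl -/- arrays. The call of Hspb7 was lost in 11 of 21 alternative analyses, with an adjusted p of 0.16 without Zbp1 -/- replicate 2, and was 0.00218 with the 10 arrays alone.

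The predicted gene Gm11437, which the naming rule leaves out, had the largest rise after Mlkl, at 7.39 ± 0.41 against 6.52 ± 0.33 (SD, n = 5 each; limma adjusted p = 0.0213), and passed in 15 of 21 alternative analyses. Tnfsf10 and Slc7a9 followed. Slc7a9, the light subunit of the cystine and basic amino acid transporter, had signals of 6.59, 6.71, 6.38, 6.88 and 6.55 in Zbp1 -/- mice and 6.12, 5.77, 5.68, 5.53 and 5.75 in Mlkl -/- mice (0.85 ± 0.19, SE, limma adjusted p = 0.023). Got1, the cytosolic aspartate aminotransferase, was at 9.45, 9.40, 9.23, 9.27 and 9.09 against 8.62, 8.29, 8.50, 8.44 and 8.67 (0.79 ± 0.14, limma adjusted p = 0.00244). Got1 also stood above the floxed mean of 8.57 ± 0.40 (SD, n = 5) in every Zbp1 -/- array, whereas the Mlkl -/- mean of 8.50 was at the floxed level. The Got1 means of the other 8 groups ran from 8.24 to 9.29, which reached the Zbp1 -/- mean of 9.29. Ces2a, a carboxylesterase, ran from 7.83 to 8.46 against 7.14 to 7.53 (0.79 ± 0.19, limma adjusted p = 0.0356; 0.11 in the fit of the 30 arrays of the first number series). Cited2, a transcriptional co-regulator that binds CBP and p300, ran from 10.48 to 10.98 against 9.71 to 10.36 (0.77 ± 0.17, limma adjusted p = 0.0165). Slc7a9, Ces2a and Cited2 had floxed means between the groups, at 5.99, 7.54 and 10.46. Leaving out single arrays raised their adjusted p to as much as 0.0979 (Slc7a9, without Zbp1 -/- replicate 4), 0.175 (Ces2a, without Zbp1 -/- replicate 2) and 0.0845 (Cited2, without Mlkl -/- replicate 15).

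Smaller rises that passed included Dpagt1, the enzyme that starts the lipid-linked precursor of N-glycans (0.64 ± 0.11, SE, limma adjusted p = 0.00111), with signals of 8.99 to 9.27 against 8.43 to 8.64. Higd2a, an assembly factor of the respiratory chain, rose by 0.61 ± 0.12 (limma adjusted p = 0.00343) and the transporter Slc22a18 by 0.59 ± 0.12 (limma adjusted p = 0.00745). Ralgapa2, the catalytic subunit of a Ral GTPase-activating complex, rose by 0.56 ± 0.10 (limma adjusted p = 0.00331). Dpagt1, Higd2a, Slc22a18, Ralgapa2 and Got1 passed in all 21 alternative analyses. Tmem143 and Ttc38 rose by 0.57 ± 0.13 and 0.51 ± 0.12, and without Mlkl -/- replicate 15 their adjusted p was 0.139 and 0.176. The remaining 32 genes higher in Zbp1 -/- colon lay between 0.30 and 0.87, and the remaining 27 lower ones between -0.31 and -0.78.

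Interferon-stimulated antiviral genes had lower values in Zbp1 -/- than in Mlkl -/- colon almost throughout, although few passed the test. Of 30 listed genes 29 were measured, 0 rose and 2 fell, Zbp1 itself and Irf7. Leaving Zbp1 out, 26 of 28 had a negative difference and the median was -0.32, where over all genes the median was 0.00087 and 50.3% were positive. Irf7, the transcription factor that amplifies the type I interferon response, had signals of 8.39, 8.09, 8.35, 8.15 and 8.06 in Zbp1 -/- mice and 9.52, 9.55, 9.51, 9.04 and 8.99 in Mlkl -/- mice (-1.11 ± 0.25, SE, limma adjusted p = 0.0273). Both groups were above the floxed mean of 7.79 ± 0.28 (SD, n = 5), and the Mlkl -/- mean of 9.32 was also above that of the FADD deletion alone, 8.94 ± 0.41. Against floxed controls Irf7 passed in Mlkl -/- mice (1.53, limma adjusted p = 0.00096) and did not in Zbp1 -/- mice (0.42, limma adjusted p = 0.53). The call of Irf7 was lost in 6 of the 10 fits that left out 1 array, with adjusted p up to 0.0877 (without Zbp1 -/- replicate 2).

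Further members of the list, named after their values were seen, had groups that did not overlap without passing the test. Oasl2, an oligoadenylate synthetase-like protein, was at 8.91, 8.37, 8.76, 8.52 and 7.92 against 9.91, 9.78, 9.86, 9.02 and 9.08 (-1.04 ± 0.41, SE, limma adjusted p = 0.368). Rtp4, a receptor transport protein induced by interferon, was at 5.81, 5.35, 5.55, 5.68 and 5.14 against 6.86, 7.07, 6.68, 6.19 and 6.10 (-1.07 ± 0.33, limma adjusted p = 0.161). Oasl1 was at 4.86 to 5.37 against 5.68 to 5.90 (-0.70 ± 0.23, limma adjusted p = 0.188), and Dhx58, a cytosolic RNA helicase, at 5.61 to 6.19 against 6.22 to 6.50. With the 10 arrays fitted alone Oasl1 (limma adjusted p = 0.00774) and Rtp4 (0.0269) passed. Mlkl -/- replicates 11, 12 and 13 were the high ones for Irf7, Oasl2 and Rtp4, and replicates 14 and 15 lay closer to the Zbp1 -/- arrays. The mean of the 28 genes without Zbp1 was 6.83, 6.59, 6.62, 6.67 and 6.53 in Zbp1 -/- arrays and 7.21, 7.29, 7.17, 6.73 and 6.75 in Mlkl -/- arrays. Floxed arrays had 6.10 to 6.38, so every array of both groups was above the floxed range, and arrays with the FADD deletion alone had 6.52 to 7.33.

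**Figure D4:**
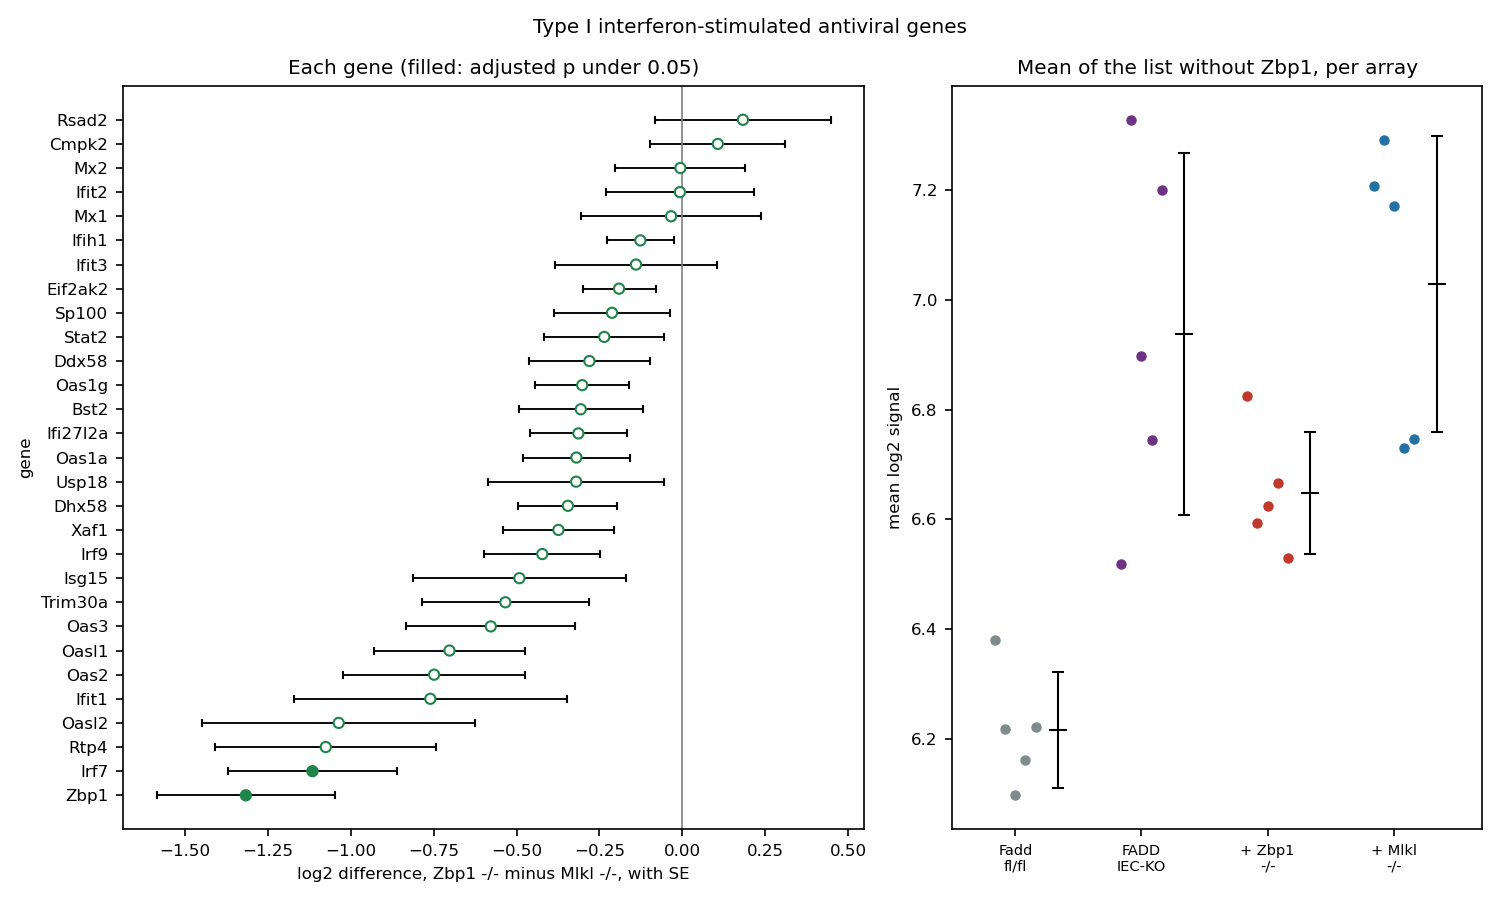
Left, log2 difference of Zbp1 -/- minus Mlkl -/- with its SE for the 29 measured type I interferon-stimulated genes; filled points passed. Right, the mean log2 signal of the list without Zbp1, 1 point per array, with mean and SD (n = 5): Zbp1 -/- arrays lie at 6.53 to 6.83, Mlkl -/- arrays at 6.73 to 7.29, and floxed arrays at 6.10 to 6.38.

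Promoters of this list were read because its members differed in the same direction. Sequences come from RefSeq on GRCm38.p6, 250 bases before each gene's start, printed 5′ to 3′ on the gene's strand. Irf7 is shown as the member other than Zbp1 that passed, and Isg15 and Oas3 as members with the interferon-stimulated response element core GAAANNGAAA, searched on both strands with overlapping matches counted. Capitals mark the matches.
Irf7 chr7:141266425-141266674 minus strand: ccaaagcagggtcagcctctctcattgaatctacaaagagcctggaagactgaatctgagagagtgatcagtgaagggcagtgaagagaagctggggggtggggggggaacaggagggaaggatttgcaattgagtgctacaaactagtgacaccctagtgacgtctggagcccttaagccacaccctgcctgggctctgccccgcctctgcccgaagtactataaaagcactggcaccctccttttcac
Isg15 chr4:156200819-156201068 minus strand: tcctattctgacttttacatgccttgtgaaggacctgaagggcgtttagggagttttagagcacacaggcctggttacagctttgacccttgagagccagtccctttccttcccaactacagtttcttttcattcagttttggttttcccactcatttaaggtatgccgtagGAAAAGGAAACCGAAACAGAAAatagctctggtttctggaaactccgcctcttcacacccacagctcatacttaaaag
Oas3 chr5:120777660-120777909 minus strand: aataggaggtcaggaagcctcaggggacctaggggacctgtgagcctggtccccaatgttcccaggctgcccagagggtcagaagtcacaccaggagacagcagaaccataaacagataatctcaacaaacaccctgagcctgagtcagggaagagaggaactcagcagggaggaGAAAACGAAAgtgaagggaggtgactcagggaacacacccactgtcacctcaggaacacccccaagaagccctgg

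The core was found in 10 of the 21 list members with a promoter entry (47.6%) and in 936 of 27025 genes of the promoter table, read over the same length (3.46%). The list was written as interferon-stimulated genes, so an excess of this element can follow from that choice alone. The shares are therefore a description, and no link to the difference between the groups was tested. Isg15, a ubiquitin-like modifier, had 3 overlapping matches, the first starting 78 bases before the gene, and Oas3, which makes the activator of RNase L, had 1 match that starts 75 bases before it. The window of Irf7 holds no match to this core. A match is a description of sequence: Isg15 differed by -0.49 ± 0.32 (SE, limma adjusted p = 0.736) and Oas3 by -0.58 ± 0.25 (limma adjusted p = 0.465), neither of which passed.

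The interferon-gamma list did not run with the type I list. Of 25 measured interferon-gamma and antigen presentation genes 0 passed, 19 were higher in Zbp1 -/- and the median was 0.07. Cxcl9, a T cell chemokine, was at 5.41, 5.70, 6.12, 6.84 and 5.38 against 5.02, 5.32, 5.23, 4.98 and 5.30 (0.72 ± 0.60, SE, limma adjusted p = 0.828), and mice with the FADD deletion alone were at 7.76 ± 1.69 (SD, n = 5). The guanylate-binding protein Gbp2 was at 7.88 ± 0.73 against 7.24 ± 0.30 (SD, n = 5 each), with overlapping groups. Of 16 genes of nucleic acid sensing and retroelement control 0 passed, and the largest differences were 0.60 for the RNA helicase Mov10 (limma adjusted p = 0.122) and 0.42 for Sting1, the adaptor of cytosolic DNA sensing (limma adjusted p = 0.592). The difference between the lists' shifts was not tested.

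Antimicrobial and acute phase genes of the epithelium mostly had higher values in Zbp1 -/- mice, without passing. Of 27 measured genes 0 passed and 23 were higher, with a median of 0.25. Nos2, the inducible nitric oxide synthase, was at 4.64, 6.95, 7.20, 7.20 and 5.23 in Zbp1 -/- mice and 4.27, 5.08, 4.90, 4.15 and 4.60 in Mlkl -/- mice (1.64 ± 0.71, SE, limma adjusted p = 0.445). Lcn2, the siderophore-binding lipocalin, was at 6.11, 6.13, 6.13, 6.52 and 5.39 against 5.58, 5.07, 4.70, 4.81 and 4.95 (1.03 ± 0.63, limma adjusted p = 0.692, and 0.0409 with the 10 arrays alone). Nox1, the colonic NADPH oxidase, named after its values were seen, was at 7.55, 9.33, 9.54, 9.37 and 8.42 against 7.46 to 8.08. For Nos2 and Nox1, Zbp1 -/- replicates 2, 3 and 4 were the highest and replicate 1 lay among the Mlkl -/- arrays. For Lcn2, replicates 1 to 4 were above every Mlkl -/- array and replicate 5 was not. The list mean was 7.39, 7.79, 7.90, 8.16 and 7.67 against 7.25 to 7.49, whereas the FADD deletion alone gave 7.94 to 9.32 and floxed arrays 7.20 to 7.40.

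Cytokines (25 measured), chemokines (31), NF-kappaB subunits and regulators (17) and complement genes (16) had 0 genes that passed and medians from -0.02 to 0.09. Ccl8, a chemokine for monocytes and eosinophils, came nearest at 5.48, 5.92, 6.67, 6.55 and 5.91 against 4.86, 5.49, 5.18, 4.53 and 5.49 (0.99 ± 0.25, SE, limma adjusted p = 0.056). Its groups overlapped, and its floxed mean was 4.55 ± 0.27 (SD, n = 5). None of the immune cell lists held a gene that passed. Neutrophil genes had a median of 0.10 (16 of 21 higher), monocyte and macrophage genes of 0.15 (19 of 25), T cell genes of 0.06 (17 of 25) and dendritic cell genes of -0.0048 (8 of 17). Cd14, the lipopolysaccharide co-receptor of the macrophage list, was at 8.01 ± 0.47 against 7.15 ± 0.22 (SD, n = 5 each; limma adjusted p = 0.114). B cell and plasma cell genes had a median of -0.27 with 17 of 22 lower. Their list mean was 6.35, 6.08, 6.25, 6.07 and 6.91 in Zbp1 -/- and 6.45 to 6.77 in Mlkl -/- arrays, so Zbp1 -/- replicate 5 was the highest of the 10 and the others were below.

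In the targeted pathway itself, 3 of 24 measured genes of necroptosis and death receptor signalling rose and 2 fell, all named above. Leaving out Zbp1, Mlkl and Fadd, 2 of the 21 others rose (Tnfsf10 and Sharpin) and 1 fell (Casp8), and their median was 0.06. Over all genes 0.426% passed. The list was chosen with earlier results of these data known, so its share is only a description. Tnfsf10, Casp8 and Sharpin passed in 12, 13 and 9 of 21 alternative analyses. In the other cell death lists no gene passed. Among 17 genes of the BCL2 family and apoptosis 0 passed, with Bcl2, the founding anti-apoptotic member, at 8.17 ± 0.27 against 8.55 ± 0.21 (limma adjusted p = 0.133). Among 24 inflammasome and gasdermin genes 0 passed, and the largest difference was that of Casp4, the sensor of cytosolic lipopolysaccharide, at 0.34 ± 0.18 (SE, limma adjusted p = 0.629). Tnf was at 5.48 ± 0.52 against 5.15 ± 0.25, and the FADD deletion alone at 7.23 ± 1.09 (SD, n = 5 each).

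Epithelial identity genes were close in both groups. Absorptive colonocyte genes (28 measured) had a median of -0.0043, enteroendocrine genes (20) 0.03 and tuft cell genes (14) -0.02, and none of them passed. Goblet cell genes (21) had a median of -0.0086, with 10 higher and 11 lower. The 1 that passed fell: Creb3l1, a membrane-bound transcription factor of secretory cells, with signals of 10.51, 10.07, 10.19, 10.09 and 10.24 against 10.98, 10.63, 11.02, 10.57 and 10.91 (-0.60 ± 0.13, SE, limma adjusted p = 0.0178, and 0.0815 without Zbp1 -/- replicate 2). Tight junction genes (16) had a median of 0.08, with 10 higher and 6 lower. The 1 that passed fell: F11r, the junctional adhesion molecule A, at 9.81 to 10.12 against 10.29 to 10.47 (-0.38 ± 0.07, limma adjusted p = 0.00343, and 0.0741 with the 10 arrays alone). The sodium channel subunit Scnn1g was at 7.27 ± 0.32 against 7.98 ± 0.22 and the water channel Aqp4 at 10.38 ± 0.37 against 9.66 ± 0.52 (SD, n = 5 each), and neither passed. Stem cell and Wnt genes had a median of -0.07 (15 of 18 lower), with Sox9, a crypt transcription factor, at 9.15 ± 0.20 against 9.55 ± 0.18. Injury repair genes had a median of -0.12 (13 of 18 lower) and cell cycle genes of 0.08 (23 of 27 higher), with no gene passing in either.

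Metabolic lists differed by small amounts. Of 32 respiratory chain genes 29 were higher in Zbp1 -/- colon, with a median of 0.11 and 0 that passed. Examples were Ndufb3 and Ndufb5, subunits of complex I, with signals of 7.52 to 7.59 against 7.06 to 7.34 and of 9.39 to 9.53 against 9.09 to 9.35, both without overlap (limma adjusted p = 0.228 and 0.106). Of 42 xenobiotic and steroid metabolism genes 1 rose, Ces2a, and 29 were higher, with a median of 0.11. Fatty acid oxidation genes (26) and sterol and lipid synthesis genes (21) had medians of 0.03 and -0.0096 and no gene that passed.

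**Figure D5:**
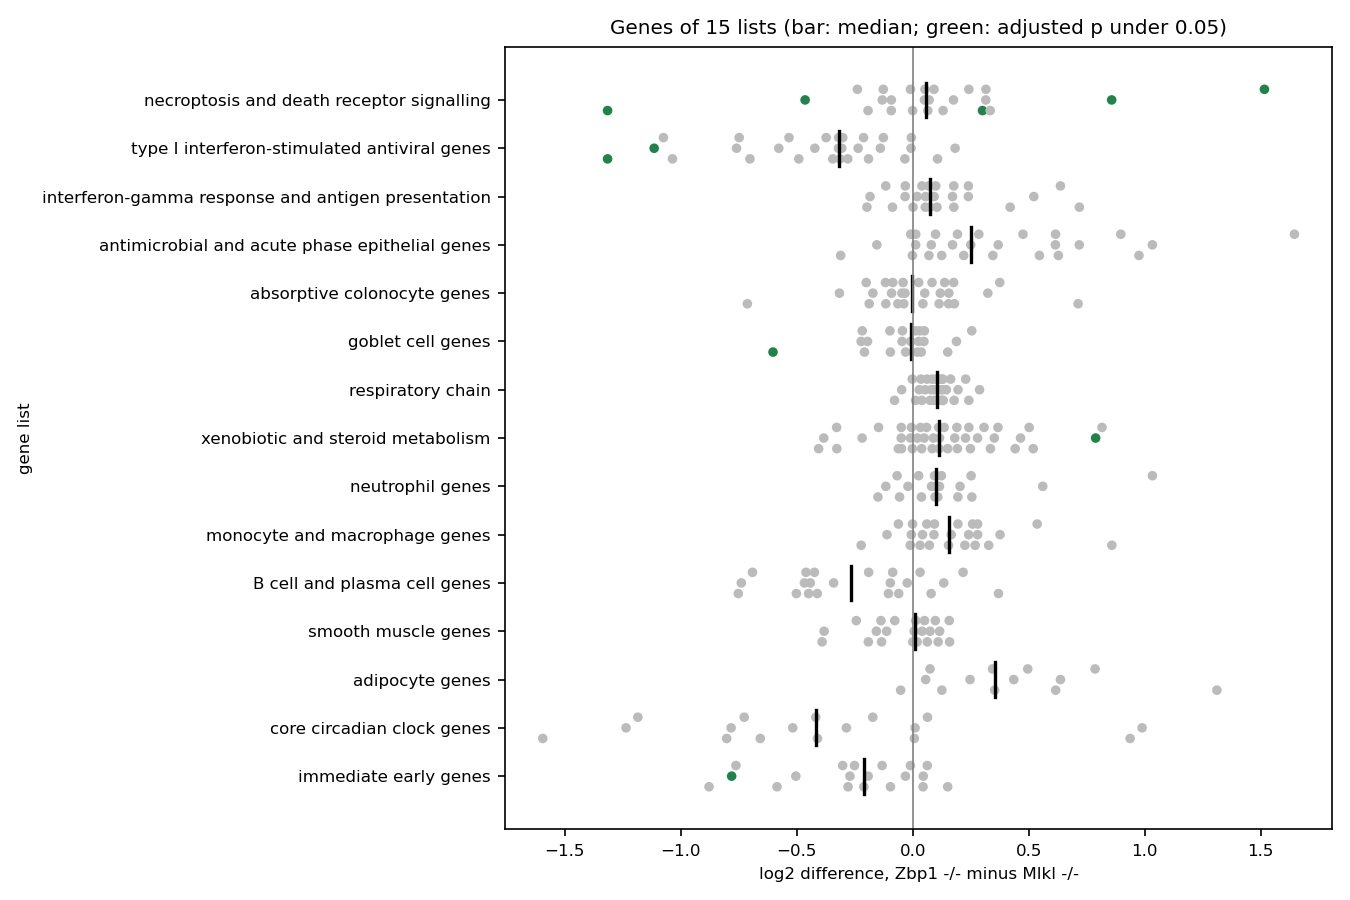
Log2 difference of Zbp1 -/- minus Mlkl -/- for each measured gene of 15 lists, 1 point per gene, with the median as a bar. Genes that passed are green. The medians of the type I interferon (-0.32), clock (-0.42), B cell (-0.27) and immediate early (-0.21) lists lie left of 0, and those of the adipocyte (0.35) and antimicrobial (0.25) lists right of it.

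Circadian clock and immediate early genes had lower medians in Zbp1 -/- colon. Of 17 core circadian clock genes 0 passed, and the median was -0.42. The clock output gene Dbp was at 11.63, 7.96, 9.34, 9.20 and 9.71 in Zbp1 -/- mice and 11.44, 9.99, 11.42, 11.72 and 11.23 in Mlkl -/- mice (-1.59 ± 0.72, SE, limma adjusted p = 0.482). The clock repressor Bhlhe41 differed by -1.18 (limma adjusted p = 0.249). A clock score, computed by subtracting the mean of 7 genes of one phase (Dbp among them) from that of 3 genes of the opposite phase (Arntl, Clock, Npas2), was -0.57, 2.49, 1.48, 1.86 and 1.39 in Zbp1 -/- arrays and -0.78, 1.20, -0.38, -0.62 and -0.17 in Mlkl -/- arrays. Zbp1 -/- replicate 1 and Mlkl -/- replicate 12 thus lay with the other group. With this score as a covariate 62 genes passed, of which 53 were among the 83. Tnfsf10, Hspb7 and Snap25 were among the genes that no longer passed with it. Of 19 immediate early genes 1 fell, the AP-1 subunit Fosb, at 7.09, 7.18, 6.61, 6.73 and 6.80 against 7.55, 7.13, 7.83, 7.80 and 8.02 (-0.78 ± 0.16, SE, limma adjusted p = 0.0118, and 0.0661 without Mlkl -/- replicate 15), and the list median was -0.21. Nr4a1, an orphan nuclear receptor of the same list, was at 6.84 ± 0.17 against 7.72 ± 0.26 (SD, n = 5 each; limma adjusted p = 0.0583). The part of these lists in the genes above was not tested beyond the covariate.

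Adipocyte genes also had positive differences: 0 of 13 passed, 12 were higher and the median was 0.35. Their list mean was 5.85, 5.95, 6.12, 6.05 and 6.79 against 5.67 to 5.84, so all Zbp1 -/- arrays lay above all Mlkl -/- arrays and replicate 5 stood highest. Car3, an abundant carbonic anhydrase of fat, was at 4.69, 5.84, 6.54, 6.56 and 8.44 against 4.23 to 6.08 (limma adjusted p = 0.633). Fibroblast genes (27) had a median of -0.06, endothelial genes (21) of 0.10 and erythroid genes (5) of -0.01, with none passing. Heat shock genes (12) had a median of -0.20 and endoplasmic reticulum stress genes (21) of -0.09, again with none. Genes of pancreas, small intestine and lymph node (26) had a median of 0.04 and list means of 6.02 to 6.23 against 6.02 to 6.11. Eosinophil, mast cell and basophil genes (18), nitric oxide and tryptophan metabolism genes (18) and housekeeping genes (11) had medians of 0.03, 0.03 and 0.02 and none that passed. The 3 measured Y-linked genes Kdm5d, Eif2s3y and Uty differed by -0.98, -0.94 and -0.98 and did not pass, and with sex as a covariate 83 genes passed, 78 of them the same.

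Genes beside the deleted loci were examined, since a chromosome segment can travel with a targeted allele. Of the 100 tested genes nearest to Zbp1 on chromosome 2 (50 on each side by RefSeq order) 0 rose and 1 fell, Nfatc2, a calcium-regulated transcription factor, at 6.36 ± 0.12 against 6.73 ± 0.14 (SD, n = 5 each; limma adjusted p = 0.0407, and 0.194 without Zbp1 -/- replicate 2). The median of these neighbours was -0.04, and 63 were lower. Of the 100 around Mlkl on chromosome 8 none passed by limma and 61 were lower, with a median of -0.03. On all of chromosome 8, 5 of 930 tested genes passed (0.538%), which were Mlkl, Urb2, Ces2a, Farsa and Vps37a. Urb2 and Ces2a lay 122 and 106 tested genes from Mlkl. The Urb2 mean was 8.68 in Mlkl -/-, 8.67 in floxed and 7.94 in Zbp1 -/- mice. The Ces2a mean was 7.32, 7.54 and 8.11 in the same order. On chromosome 2, 8 of 1637 tested genes passed (0.489%), where 0.426% of all genes did. Of these, 6 lay in the stretch of 372 tested genes from Snap25 to Zbp1. The 6 include both end genes, and so the deleted gene itself. That stretch was chosen after the values were seen, and the part of the alleles' flanks was not tested.

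Set beside the floxed controls, Zbp1 -/- colon differed at 209 genes (1.07%), 97 higher and 112 lower, and Mlkl -/- colon at 31 genes (0.159%), 13 higher and 18 lower. Both comparisons use the same 5 floxed arrays. With the clock score as covariate the counts were 75 and 36. Of the 83 genes that separated the groups, 29 passed for Zbp1 -/- against floxed (11 higher and 18 lower). For Mlkl -/- against floxed 3 passed, which were Mlkl, Irf7 and Hsd17b11. The same Zbp1 -/- and Mlkl -/- arrays picked out the 83, which favours such overlaps, so the counts are given as a description. Hsd17b11, a steroid dehydrogenase of lipid droplets, had a floxed mean of 10.04, a Zbp1 -/- mean of 10.03 and a Mlkl -/- mean of 9.64. Sh3bgrl, Uprt, Urb2, Asb13 and Cyb5r3 had Zbp1 -/- minus floxed differences of -1.22, -1.02, -0.73, -0.68 and -0.91 and Mlkl -/- minus floxed differences of -0.12, -0.16, 0.01, 0.15 and -0.02. Oasl2 and Rtp4 were above floxed in both groups, at 1.46 and 1.09 in Zbp1 -/- and at 2.50 and 2.17 in Mlkl -/- mice, where the Mlkl -/- values passed (limma adjusted p = 0.00096 and 0.00041). The counts against floxed controls moved with single arrays. They ran from 68 (without floxed replicate 28) to 284 (without floxed replicate 30) for Zbp1 -/- and from 8 (without floxed replicate 29) to 72 (without floxed replicate 26) for Mlkl -/-. The Zbp1 -/- count was 80 and 75 without Zbp1 -/- replicates 2 and 4 and 77 and 133 without floxed replicates 27 and 29. The Mlkl -/- count was 9, 14 and 13 without Mlkl -/- replicates 11, 13 and 15 and 13 without floxed replicate 27, 28 or 30.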

How the data were processed

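RNA (100 ng per array) from colon tissue was measured on Affymetrix arrays, 1 per mouse. The authors deposited log2 values, made with Affymetrix Expression Console and Transcriptome Analysis Console per the submitters' processing notes. Versions, algorithm and build: not given in the sources used here. Of 22142 probe sets, 19527 had 1 gene symbol and 2615 had none or several and were left out. For genes with more than 1 probe set the one with the highest mean was kept (33 dropped), leaving 19494 genes.

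With limma 3.58.1 (R 4.3.3), the 10 group means were estimated together from the 50 arrays (40 residual degrees of freedom, lmFit and eBayes), with Benjamini-Hochberg adjustment across genes and a threshold of 0.05. The fit was checked on simulated data. Depth has no counterpart on arrays, and 5 arrays per group limit the precision. The members and the 43 gene lists were chosen with earlier results of these data known. Named genes are the targeted pathway, the 12 largest rises and falls that passed with groups that did not overlap (predicted and sex-linked genes left out), and list members and neighbours of the deleted loci by smallest adjusted p or largest difference. Outside this rule, and chosen after their values were seen, are Oasl1, Oasl2, Rtp4, Dhx58, Isg15, Oas3, Tnf, Nox1, Dbp, Hsd17b11, Gm11437, the 4 overlapping genes and those under other observations. Gene order and promoters come from RefSeq, GRCm38.p6. Alternatives changed the arrays fitted, scaling, filter, probe set rule, moderation, weights and covariates (sex, clock, smooth muscle), and left out each array in turn. A required log2 difference of at least 1 was a further alternative, not among the 21 counted for each gene.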

Additional observations from a re-analysis of the deposited data

Results flagged for a closer look

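In 13 of 296 groups of 5 values examined, 1 array lay far from the other 4 (gap over range above 0.71, Dixon's limit), where chance gives about 1 in 20. The share flagged was thus not above that of chance, and the values are listed as a description. Among the Mlkl -/- arrays, replicate 15 had Cldn4 at 8.85 (others 8.24 to 8.39), Hspa1a at 8.51 (7.51 to 7.70), Ndufb3 at 7.06 (7.29 to 7.34) and Tmem143 at 6.10 (6.49 to 6.63). Its mean of dendritic cell genes was 5.90, with the other 4 arrays at 5.76. Replicate 12 had Alas2 at 5.75 (others 5.37 to 5.47), C1qb at 7.92 (7.35 to 7.42) and a mean of monocyte and macrophage genes of 6.61 (6.31 to 6.36). Replicate 13 had Slc22a18 at 8.25 (others 8.15 to 8.16), and replicate 14 had Ly6c2 at 7.31 (7.51 to 7.57). Among the Zbp1 -/- arrays, replicate 5 had Gapdh at 12.11 (others 12.24 to 12.27) and a mean of adipocyte genes of 6.79 (5.85 to 6.12), and replicate 2 had Pcp4 at 7.12 (7.87 to 8.10). The reason for these values was not tested.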

How the results depend on the processing

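The count of 83 genes between Zbp1 -/- and Mlkl -/- became 152 without the dimmest 40% of genes, 284 with group variance weights, 136 with a smooth muscle covariate and 5 when a log2 difference of 1 was required. The 209 genes of Zbp1 -/- against floxed became 384, 552 and 14 under the filter, the weights and the log2 requirement, and 75 with the clock score as covariate. The 31 genes of Mlkl -/- against floxed became 59, 169 and 8 under the filter, the weights and the log2 requirement. Fewer genes tested or a stricter rule makes part of these differences, and otherwise the cause was not tested. Leaving out 1 array gave 34 to 98, 68 to 284 and 8 to 72 genes. The count between the deletions was 69 with the 10 arrays alone (36 of them among the 83), 84 with the 30 arrays of the first number series (64), 101 after quantile normalization (82), 84 after median centring (79), 83 with probe sets averaged and 106 with trended, robust moderation. None of the 83 genes changed sign, and 65 missed the threshold in at least 1 of 21 alternatives, 19 of them in 10 or more. Among 125 genes followed singly, 4 values turned sign, none of them past the threshold: Eif2s3y was 0.16 and Uty 0.18 with sex as covariate, and S100a8 was -0.092 and Eif2s3y 0.046 with the clock score. Over these genes 37 values newly passed and 130 no longer did. No paired analysis was possible because the title numbers of the groups are not shared. Signal over background is not given in the values used here.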

Other observations

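Further genes that passed are given singly, chosen after their values were seen, and form no tested group. Higher in Zbp1 -/- than in Mlkl -/- colon were the mitochondrial citrate carrier Slc25a1 (0.48, limma adjusted p = 0.00895) and the oxoglutarate carrier Slc25a11 (0.33, limma adjusted p = 0.00943). Also higher were Kdelr1, which retrieves proteins to the endoplasmic reticulum (0.38, limma adjusted p = 0.00521), the TRAPP subunit Trappc1 (0.42, limma adjusted p = 0.0154) and the epithelial GTPase Rab25 (0.36, limma adjusted p = 0.0443). Lpcat3, which puts polyunsaturated chains into phospholipids, was 0.50 higher (limma adjusted p = 0.0135), and Aldh3a2, the fatty aldehyde dehydrogenase, 0.46 higher (limma adjusted p = 0.00565). Lower were the vesicle sorting genes Vps33b (-0.46, limma adjusted p = 0.0135) and Vps37a (-0.43, limma adjusted p = 0.0165), the p53 ligase Mdm2 (-0.47, limma adjusted p = 0.0151), the Notch ligand ligase Mib1 (-0.40, limma adjusted p = 0.0115) and the nucleolar methyltransferase Fbl (-0.35, limma adjusted p = 0.0351). Azin1, which keeps antizyme from ornithine decarboxylase, differed by -0.62 (limma adjusted p = 0.00244). Azin1 and Slc25a1 passed in all 21 alternative analyses. Rab25 passed in only 7 of them, Fbl in 12, Vps33b and Mib1 in 16, Trappc1 in 17 and Mdm2 in 18. The other genes of this paragraph passed in 19 or 20.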
